A study of Mus musculus with 5 samples.

Results

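Transcripts of 10 genes of cell attachment to the extracellular matrix were followed in cultured mouse rib chondrocytes: the integrin alpha subunit genes Itga1, Itga3, Itga5, Itga6, Itga10, Itga11 and Itgav, the beta subunit genes Itgb1 and Itgb5, and the beta-like gene Itgbl1. The genes were chosen by name, with earlier results of these data known. They come from 18193 genes that the platform annotation pairs with at least 1 probe set of their own. Counts of them beside shares of all genes are therefore a description and no test of the set. A probe set is a group of short oligonucleotides on the array that together report 1 transcript. Of the 10 genes, 9 had a probe set of their own, 28 in all among 34945 with a single gene symbol, and all 9 passed the filter on dim genes. Itga11 had none and was not analysed here. Of the 28 probe sets, 21 had a mean intensity above the filter and 10 lay at or below the detection floor on at least 1 day.

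Integrins are heterodimers of an alpha and a beta chain that span the cell membrane and tie matrix proteins outside the cell to the actin cytoskeleton inside it. The alpha chain largely sets the ligand: chains alpha 1, 10 and 11 bind collagens, alpha 3 and 6 bind laminins of basement membranes, and alpha 5 and v bind fibronectin, vitronectin and other proteins that carry an arginine-glycine-aspartate sequence. The beta 1 chain pairs with all of these alpha chains, and beta 5 pairs with alpha v. In cartilage, integrins with the beta 1 chain attach chondrocytes to type II collagen and fibronectin. Itgbl1 is named for its resemblance to the repeats in the stalk of beta chains, but it is a secreted protein without the ligand-binding head or the membrane anchor, so it is not an integrin subunit.

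Collagenase and trypsin freed the cells from rib cages of gestational day 18.5 embryos of strain FVB, and they were plated on gelatin-coated dishes, in a medium with serum, ascorbic acid and beta-glycerophosphate. The groups were cultures at days 2, 6, 9, 12 and 15, with 1 array each, and they differed by time in culture only, so far as the labels say. Strain, digestion, coating and medium were the same in all groups, and whether the 5 cultures shared an isolate is not given in the labels. The design asks how expression differed with time in culture.

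Values are MAS5 signal intensities scaled to a common trimmed mean, so each value is relative to the average of its array. Median intensity of the arrays ranged from 106.4 to 117.7. Values below 73.1, the 40th percentile of all intensities, were set to that floor before any fold difference was taken, and a fold against a value at the floor is a bound. With 1 array per day there was no replicate, so a difference between a pair of days has no replicate error and no p-value. Where 2 or more probe sets of a gene passed the filter, their log2 differences between days 15 and 2 scattered with an SD of 0.55 (5158 genes). That SD does not hold variation between dishes or arrays. The brightest probe set, by mean intensity over the 5 arrays, stands for a gene here, and the others are given beside it. Because probe sets differ in brightness for reasons other than transcript number, levels are compared between days within a probe set, not between genes.

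**Figure D1:**
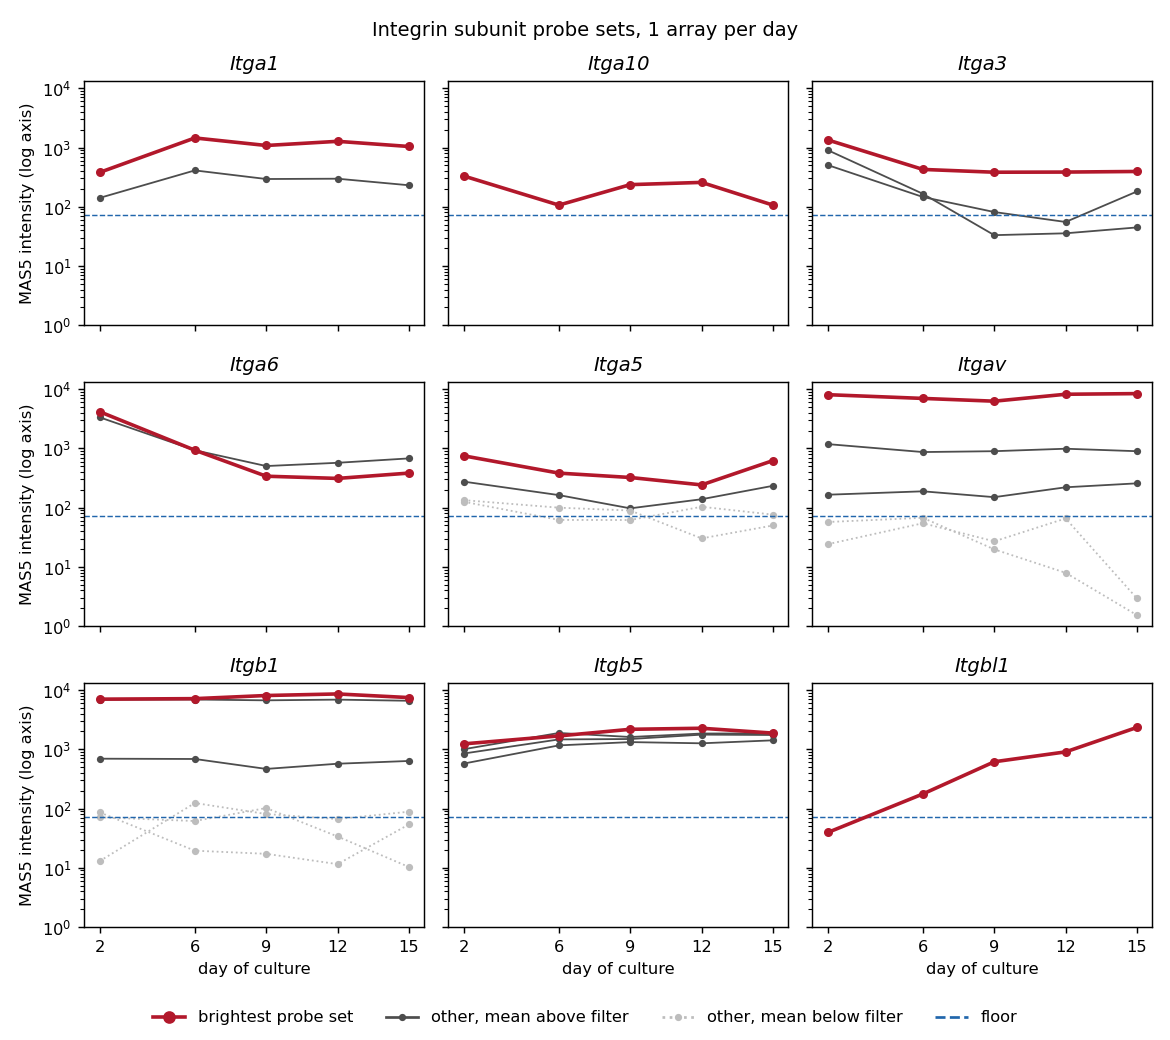
Signal intensity (log axis) of every probe set of the 9 measured genes against day of culture, 1 array per day; the thick red line is the brightest probe set, thin lines are the others and the dashed line is the floor of 73.1. Itgbl1 climbed at every step, Itga6 and Itga3 were highest at day 2, and the bright probe sets of Itgav and Itgb1 stayed within 1.34-fold over all days.

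The collagen-binding alpha chain genes had unlike courses. Itga1, whose product binds collagens of basement membrane and fibrous matrix, had intensities of 380, 1450, 1082, 1272 and 1041 on days 2, 6, 9, 12 and 15. The day 2 array stood alone as the lowest. Itga1 was 3.81-fold higher at day 6 and 2.74-fold higher at day 15 than at day 2 (log2 difference 1.45). Its dimmer probe set gave 141, 411, 294, 297 and 231 in order of day. The course had the same shape, highest at day 6 and lowest at day 2, but the difference between days 15 and 2 was smaller, 1.63-fold. Itga10, the collagen-binding chain best known from cartilage, was read by 1 probe set with intensities of 331, 107, 236, 258 and 107. It was low at days 6 and 15 and higher at days 2, 9 and 12, so its 3.10-fold lower value at day 15 than at day 2 was no steady course. At day 12 it was 1.28-fold lower than at day 2.

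Both laminin-binding alpha chain genes were lower at every later day than at day 2. Itga6, a chain of laminin receptors in epithelia, endothelium and many progenitor cells, gave 4163, 933, 339, 312 and 383 on successive days. Day 2 was the highest, day 6 intermediate, and days 9, 12 and 15 differed from each other by at most 1.23-fold. At day 15 Itga6 was 10.9-fold lower than at day 2 (log2 difference -3.44). Day 6 was 4.46-fold lower than day 2, and day 9 was 2.75-fold lower than day 6. The other Itga6 probe set had 3348, 931, 504, 572 and 678 and was 4.94-fold lower at day 15. Itga3, the partner of beta 1 in the receptor for laminins of epithelial basement membranes, had 1343, 427, 383, 385 and 394. It was 3.41-fold lower at day 15 than at day 2 (log2 difference -1.77), and after the first step its values stayed level. The other Itga3 probe sets had the same direction. One had 902 and 165 on days 2 and 6 and lay below the floor on the 3 later days, which put it at least 12.3-fold lower at day 15. The other had 505, 146, 81.4, 55.3 and 181 and was 2.79-fold lower at day 15, with its lowest value at day 12.

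The alpha chain genes of fibronectin and vitronectin receptors ended near where they began. Itga5, the alpha chain of the classical fibronectin receptor, had 750, 383, 323, 242 and 623 on days 2, 6, 9, 12 and 15. The first and last arrays were high and the middle ones low. Day 12 was 3.10-fold lower than day 2, day 15 was 2.57-fold higher than day 12, and day 15 was 1.20-fold lower than day 2 (log2 difference -0.27, inside the SD between probe sets). A dimmer probe set had 275, 163, 97.4, 139 and 234, also highest at the ends, with its lowest value at day 9. The remaining 2 of the 4 Itga5 probe sets had means below the filter and never exceeded 134. Itgav, the common alpha chain of vitronectin receptors, had 8076, 6984, 6272, 8211 and 8421. Its highest and lowest days differed by 1.34-fold, and day 15 was 1.04-fold higher than day 2. A dimmer Itgav probe set was 1.32-fold lower at day 15 than at day 2 and another 1.56-fold higher, and 2 more lay below the floor on all 5 days.

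The beta chain genes were level or modestly higher. Itgb1, the partner of all the alpha chains measured here, had 7028, 7170, 8100, 8607 and 7474 in order of day. Day 15 was 1.06-fold higher than day 2 (log2 difference 0.09), and no pair of days differed by more than 1.22-fold. A second bright Itgb1 probe set ranged from 6602 to 6927, a 1.05-fold range, and a dimmer one was 1.09-fold lower at day 15. The other 3 of its 6 probe sets were below the filter and never exceeded 124. Itgb5, the partner of alpha v in a vitronectin receptor, had 1235, 1683, 2178, 2269 and 1878. All 4 later days were above day 2, and day 15 was 1.52-fold higher (log2 difference 0.60). The other 3 Itgb5 probe sets were 1.85-fold, 2.05-fold and 2.47-fold higher at day 15 than at day 2, so 2 of 4 passed 2-fold. For 2 of these 4 the suffix of the probe set name marks oligonucleotides that can match other transcripts. Such suffixes are also carried by the brightest Itga5 probe set, the Itga3 probe set with the largest difference and a dimmer Itgb1 probe set.

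Itgbl1 had the widest range of the 9 genes. Its intensities were 39.4, 176, 616, 905 and 2343 on days 2, 6, 9, 12 and 15, each day above the one before. Day 2 was below the floor, which put day 15 at least 32.1-fold higher. Of the 4 steps, day 6 was at least 2.41-fold higher than day 2, day 9 3.49-fold higher than day 6, day 12 1.47-fold higher than day 9 and day 15 2.59-fold higher than day 12. The gene was read by a single probe set, so no second reading of its course exists.

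The linear trend of log2 intensity on day was tested with limma over the 5 arrays for all 11075 genes kept. Its SE and p-values measure scatter around a straight line in 1 time course, not variation between replicate cultures. Of the 9 genes Itgbl1 alone passed, and no integrin subunit gene did. Itgbl1 rose by 0.39 ± 0.029 log2 units per day (slope ± SE, 5 arrays, limma adjusted p = 0.035). A rising trend passed in 0.0542% of all genes, 6 in number, so such calls were rare. Because the 9 genes were chosen with earlier results of these data known, the call is no independent support for Itgbl1. The call was lost when any 1 of the 5 arrays was left out, with limma adjusted p between 0.0674 without day 15 and 0.269 without day 2, and no gene passed in any of those fits. The slope in them was 0.38 to 0.40 log2 units per day. It was also lost when every probe set was fitted on its own (limma adjusted p = 0.0542), and over 15 alternatives it passed in 7, with limma adjusted p from 0.0169 to 0.269. A falling trend passed in 0 of the 9 genes and in 0% of all genes by limma. At an unadjusted p under 0.05, Itga3 and Itga6 had a falling slope, against 12.7% of all genes. Their slopes were -0.12 ± 0.045 and -0.27 ± 0.066 log2 units per day (slope ± SE, limma adjusted p = 0.160 for Itga3 and 0.0894 for Itga6). On a log2 scale of days both passed, with limma adjusted p of 0.0423 for Itga3 and 0.0187 for Itga6. Over all 15 alternatives the limma adjusted p ranged from 0.0423 to 0.877 for Itga3 and from 0.0187 to 0.462 for Itga6. On that scale 4.30% of all genes had a falling and 6.63% a rising call. The other 6 genes had limma adjusted p between 0.261 for Itgb5 and 0.834 for Itgav. Without the day 2 array the slopes of Itga1, Itga5 and Itga10 changed sign, and without day 15 that of Itgav did.

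At the threshold of 2-fold between days 15 and 2, 2 of the 9 genes were higher, Itga1 and Itgbl1, where 16.2% of all genes were. Lower by that measure were 3 of the 9, Itga3, Itga6 and Itga10, where 11.6% of all genes were. The median log2 difference of the 9 genes was 0.06, against 0.000616 over all genes. With means of days 12 and 15 set against means of days 2 and 6, among the 9 genes Itgbl1 alone was at least 2-fold higher and Itga6 alone at least 2-fold lower, where 9.85% of all genes were higher and 5.62% lower. The log2 difference of Itga10 was then -0.18. Raising the floor to the 60th percentile put Itga10 at -0.87, short of 2-fold, and the bound of Itgbl1 at a log2 difference of 3.69. With the filter at the 70th percentile Itga10 was too dim to be kept, and 2 genes, Itga3 and Itga6, remained at least 2-fold lower.

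**Figure D2:**
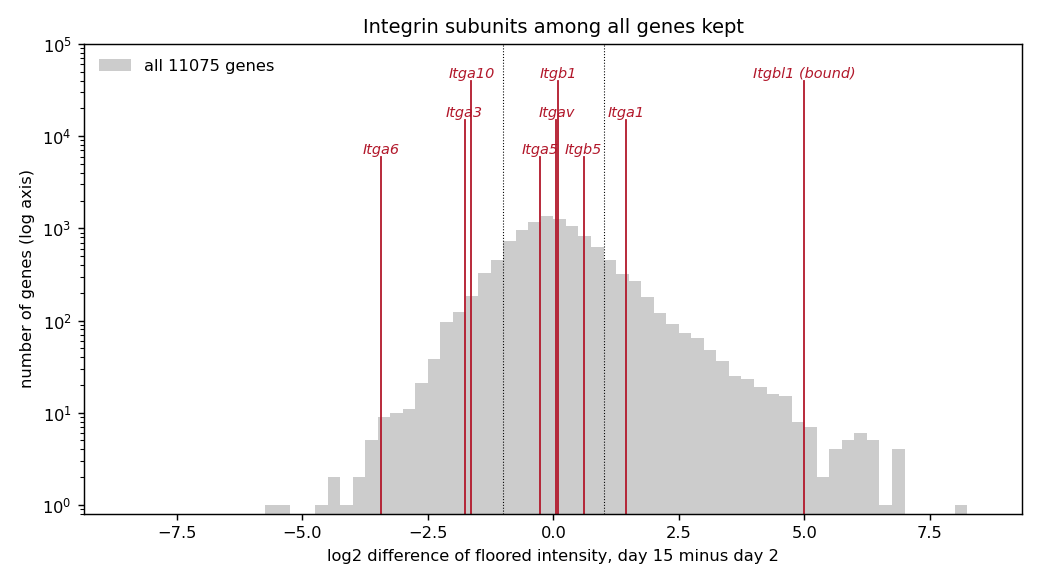
Histogram (log count axis) of the log2 difference of floored intensity, day 15 minus day 2, over 11075 genes. Red lines are the 9 measured genes and dotted lines 2-fold. Itgbl1, a bound, lies in the sparse upper end at 5.00 and Itga6 in the lower end at -3.44, while Itgav, Itgb1 and Itga5 lie near 0.

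Steps between neighbouring days were counted at the same threshold. At day 6 against day 2, Itga1 and Itgbl1 were at least 2-fold higher, 2 of 9 where 10.2% of all genes were. Itga3, Itga6 and Itga10 were at least 2-fold lower, 3 of 9 where 5.7% of all genes were. At day 9 against day 6, Itga10 was 2.22-fold and Itgbl1 3.49-fold higher, where 5.87% of all genes passed 2-fold. Itga6 alone was lower, where 4.06% were. Between days 9 and 12 none of the 9 genes passed 2-fold, on an interval where 1.72% of all genes were higher and 1.51% lower. At day 15 against day 12, Itga5 and Itgbl1 were higher, where 4.23% of all genes were, and Itga10 was 2.42-fold lower, where 3.92% were. Itgbl1 was therefore past 2-fold on 3 of the 4 steps, Itga10 on 3 with changing direction, and Itgav, Itgb1 and Itgb5 on none.

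Among the 9 genes, the courses of Itgav and Itgb1 were closest, with a root mean square difference of 0.20 log2 units over the 5 days after each course was centred on its own mean. Next came Itgb1 and Itgb5 at 0.22. Itga6 and Itgbl1 were farthest apart, at 3.09. Itga3 and Itga6, the laminin-binding pair, differed by 0.78, by their brightest probe sets. From day 6 to day 9 Itga6 was 2.75-fold lower and Itga3 1.11-fold lower by these, while the other Itga3 probe sets were at least 2.26-fold and 1.79-fold lower.

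By the same measure over the other 11074 genes, the course nearest to that of Itgbl1 was Mmp13, collagenase 3, at 0.14 log2 units. Mmp13 had 456, 1124, 4198, 6726 and 12995 in order of day and was 28.5-fold higher at day 15 than at day 2. Cd200, an immunoglobulin-family surface protein, and Rgcc, a cell cycle regulator, followed at 0.23 and 0.31. Cd200 was below the floor at day 2, as Itgbl1 was. Nearest to Itga6 were Bex2, Btbd11 and Upp1, the gene of uridine phosphorylase, at 0.19, 0.22 and 0.25. Each of these was below the floor on at least 2 of the last 3 days, where Itga6 was not, so their likeness there rests on floored values. Nearest to Itga1 were Sdf2l1, a protein of the endoplasmic reticulum, at 0.05, then Pnpla7, below the floor at day 2, at 0.07 and the transcription factor gene Maf at 0.12. Other Maf probe sets were between 1.70-fold lower and 4.51-fold higher at day 15 than at day 2. Nearest to Itga3 were Mapk6, Zfp697 and Tma16, to Itga5 were Ltbp4, Orc1 and Myo1h, and to Itga10 were Slc22a23 (below the floor at day 15), Zfp111 and H2aj. Nearest to Itgav were Zdhhc8, Cenpm and Ttc37, to Itgb1 were Etfb, Scand1 and Cdk19, and to Itgb5 were Stk38, Grn and Atrx. These distances rest on 5 arrays, 1 per day, and describe likeness of course only.

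**Figure D3:**
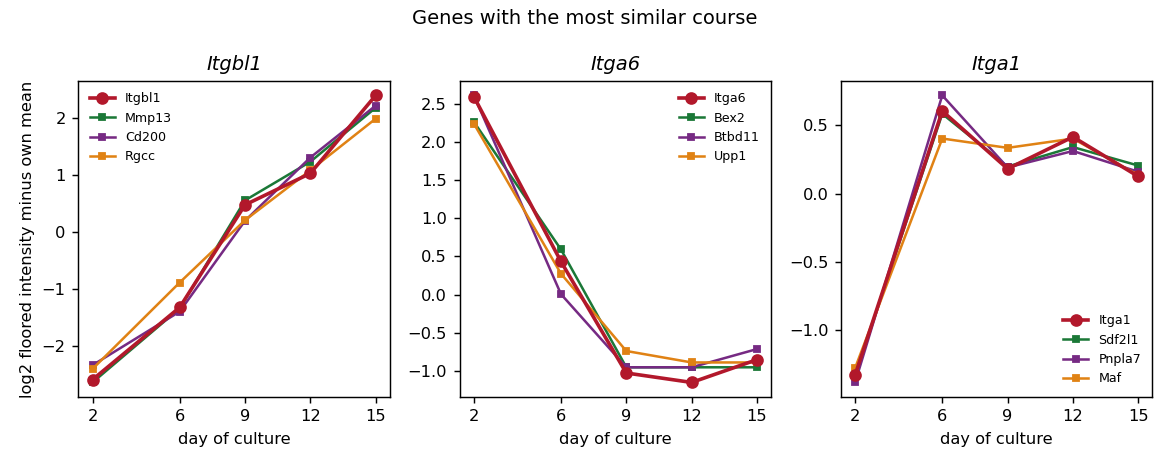
Log2 floored intensity minus each gene's own mean against day of culture for Itgbl1, Itga6 and Itga1 (thick red) and the 3 genes with the closest course to each. Itgbl1, floored at day 2, and Mmp13 climb together over all 4 steps. Itga6 and its neighbours are highest at day 2, and Itga1 and its neighbours are lowest at day 2.

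The promoter windows of Itgbl1 and Mmp13 are shown because Mmp13 had the course nearest to that of Itgbl1, with that of Itgb1 as a gene that was level on all days. Each window runs from 250 bases before to 50 after a transcription start that RefSeq gives on GRCm38.p6, for Itgbl1 at chr14:123659890-123660189, for Mmp13 at chr9:7272264-7272563 and for Itgb1 at chr8:128685404-128685703, all on the plus strand. Capitals mark matches, on either strand, to the GC box GGGCGG, the AP-1 motif TGANTCA, the RUNX motif TGTGGT, the SOX motif ACAAAG or the TATA box TATAAA.
Itgbl1: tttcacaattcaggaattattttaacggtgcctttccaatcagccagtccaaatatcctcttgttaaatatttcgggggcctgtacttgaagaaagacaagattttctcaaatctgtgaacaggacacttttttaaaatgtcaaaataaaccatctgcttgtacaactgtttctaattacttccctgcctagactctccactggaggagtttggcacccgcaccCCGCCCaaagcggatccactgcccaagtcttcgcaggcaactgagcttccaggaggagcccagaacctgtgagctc
Mmp13: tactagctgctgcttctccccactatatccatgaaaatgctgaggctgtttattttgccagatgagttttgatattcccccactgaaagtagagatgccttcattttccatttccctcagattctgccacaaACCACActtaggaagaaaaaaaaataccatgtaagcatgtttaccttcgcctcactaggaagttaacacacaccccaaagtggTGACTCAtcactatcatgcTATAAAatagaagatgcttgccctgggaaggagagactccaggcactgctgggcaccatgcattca
Itgb1: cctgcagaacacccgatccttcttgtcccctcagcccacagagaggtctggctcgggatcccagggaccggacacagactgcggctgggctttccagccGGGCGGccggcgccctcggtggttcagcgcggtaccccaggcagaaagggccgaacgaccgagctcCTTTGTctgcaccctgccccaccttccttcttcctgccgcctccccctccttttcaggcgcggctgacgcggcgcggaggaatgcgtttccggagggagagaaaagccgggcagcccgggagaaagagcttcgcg
The Itgbl1 window held 1 match, a GC box at position 225 from its 5′ end, and the Mmp13 window held a RUNX match at 133, an AP-1 match at 216 and a TATA box at 235. The windows of Itgbl1 and Mmp13 therefore shared no motif of the 5. The Itgb1 window held a GC box at 100 and a SOX match at 166. Among 32851 promoter windows of the same length, 35.7% held the GC box, 7.81% the AP-1 motif, 16.8% the RUNX motif, 18.7% the SOX motif and 13.6% the TATA box. Promoter windows were at hand for 9 of the 10 genes, 10 windows in all, and 7 of these held a GC box. The Itgbl1 window had 45.3% G and C bases and the Itgb1 window 67.3%, against a median of 52.7% over all windows. A match is a run of letters and does not show that a factor binds there.

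Of 17 other integrin subunit genes, 16 were read by single-symbol probe sets and 4 passed the filter. The 12 below the filter included the laminin and leukocyte chains Itgb4, Itgb2 and Itgam, which were at or below the floor on all 5 days, and the collagen-binding chain Itga2, at or below it on 2 days. Itgb8, a partner of alpha v that binds latent TGF-beta, had 82.8, 246, 520, 579 and 643 in order of day. It was 7.76-fold higher at day 15 than at day 2, the only one of the 4 past 2-fold in either direction (limma adjusted p = 0.0734 for its slope). Its day 2 value was close to the floor, and the log2 difference of 2.96 became 1.83 with the floor at the 60th percentile and 2.20 with a pseudocount. Itga8, a chain for nephronectin and other ligands, had 351, 248, 570, 1188 and 216, with its peak at day 12, and was 1.63-fold lower at day 15 than at day 2 but 1.13-fold higher by another probe set. Itga2b, best known from platelets, had 173, 251, 343, 206 and 334. None of the 4 passed the trend test by limma after adjustment, and 1, Itgb8, had a rising slope at an unadjusted p under 0.05, as 14.4% of all genes had. Past 2-fold between days 15 and 2 were 16.2% of all genes upward and 11.6% downward.

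Of 30 listed genes for proteins that link integrin tails to actin or signal from them, 25 were measured. Past 2-fold at day 15 were 3 upward and 1 downward, and the median log2 difference was 0.16. Over all genes the shares were 16.2% upward and 11.6% downward. Vcl, vinculin, had 10082 at day 15 and 4129 at day 2, a 2.44-fold higher value, with 1.79-fold by a dimmer probe set. Tns1, a tensin that binds beta chain tails, was 4.20-fold higher. Src, a tyrosine kinase of adhesion sites, was at least 3.51-fold higher, but 1.19-fold lower by a dimmer probe set. Pxn, paxillin, a scaffold of focal adhesions, had 2965, 2445, 1933, 1847 and 1311 in order of day. It was lower at each later day and 2.26-fold lower at day 15 than at day 2 (limma adjusted p = 0.0894), and 2.63-fold and 2.90-fold lower by its other probe sets. The bright genes Flna, filamin A, and Tns3, another tensin, were 1.18-fold and 1.23-fold lower, though a second Tns3 probe set was 2.00-fold higher.

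Matrix ligand genes were listed in 3 classes, and differences between the classes were not tested. Beside the counts below, 16.2% of all genes passed 2-fold upward between days 15 and 2 and 11.6% downward. Among 14 measured genes of fibronectin, vitronectin receptor ligands and other proteins of that kind, 6 passed 2-fold upward at day 15 and 0 downward, and 0.45 was the median log2 difference. The 3 brightest were Fn1, Thbs1 and Ccn2, which encode fibronectin, thrombospondin 1 and a matricellular growth factor modulator. Fn1 was 1.09-fold lower at day 15 (a second Fn1 probe set: 3.13-fold higher), Thbs1 1.32-fold higher and Ccn2 1.29-fold lower. Npnt, among the 6 past 2-fold, was 2.07-fold higher, but between 1.25-fold lower and 1.59-fold higher by its other probe sets. Among 11 measured laminin and basement membrane genes, 1 passed 2-fold upward and 0 downward, around a median of -0.11. That gene was Col4a1, a type IV collagen chain, with 1434, 1615, 4496, 9657 and 4320 in order of day and a peak at day 12. Nid1, nidogen, and Lamb1, a laminin beta chain, were within 1.21-fold of day 2 at day 15, with other probe sets between 1.62-fold lower and 1.45-fold higher. Among 10 collagen genes, 7 passed 2-fold upward and 2 downward, around a median of 1.54. The lower ones were the cartilage collagens Col2a1 and Col9a1, each 2.65-fold lower, and the bright fibrous collagens Col1a2 and Col3a1 were 80.4-fold and 85.5-fold higher (Col1a2 2.89-fold by another probe set). Col6a2, among the 7 upward, was 2.02-fold higher, but 1.60-fold by another probe set. No gene of these ligand lists passed the trend test by limma after adjustment. At a limma unadjusted p under 0.05 the slope rose for 4 of the first list, 1 of the second and 8 collagens. It fell for 2 collagens. Over all genes the shares at that threshold were 14.4% rising and 12.7% falling.

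Other matrix receptors and proteins that travel with integrins had 19 measured genes. Of these, 3 passed 2-fold upward between days 2 and 15 and 2 downward, around a median of 0.30. Over all genes the shares were 16.2% upward and 11.6% downward. Dag1, dystroglycan, a laminin receptor outside the integrin family, was 2.69-fold higher, but 1.28-fold to 1.52-fold by 3 dimmer probe sets. Cav1, caveolin 1, was 2.42-fold higher, and Bsg, basigin, a surface protein that associates with laminin-binding integrins, 2.19-fold higher. Cd44, the hyaluronan receptor, had 8883, 2320, 1882, 2049 and 3864 in order of day and was 2.30-fold lower at day 15 (1.55-fold and 1.96-fold by others). Cspg4, a membrane proteoglycan of progenitor cells and pericytes, had 1997, 476, 429, 503 and 863 and was 2.31-fold lower. Both were highest at day 2, as Itga3 and Itga6 were. The bright genes Rpsa, a ribosomal protein also described as a laminin receptor, and Cd81, a tetraspanin, had log2 differences of -0.0071 and 0.72.

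**Figure D4:**
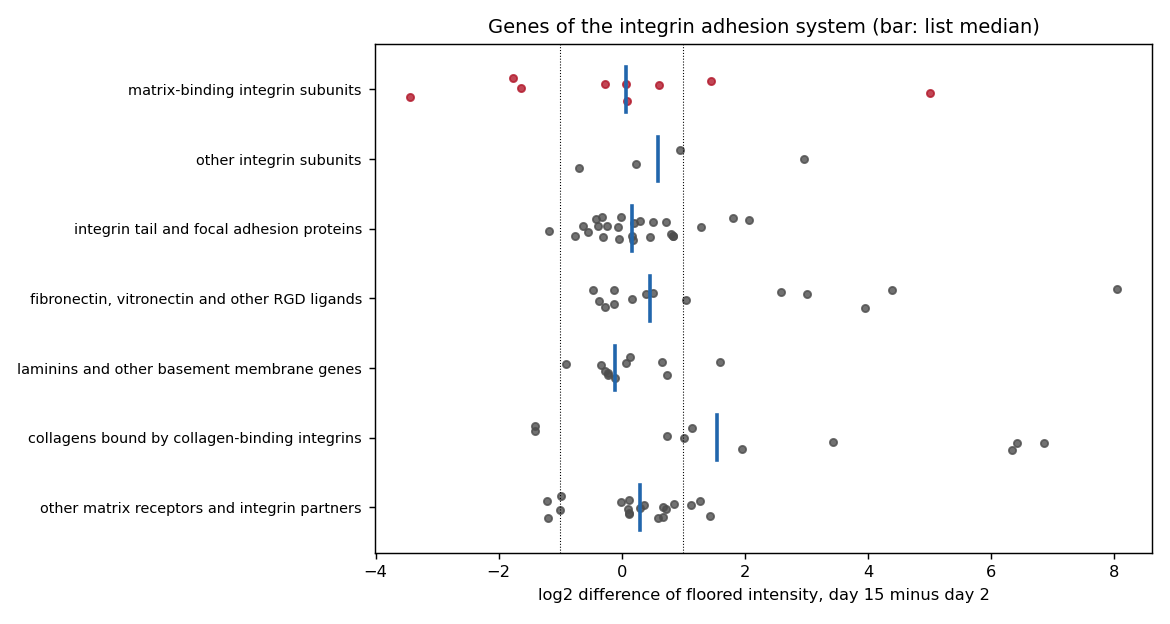
Log2 difference of floored intensity, day 15 minus day 2, for the 9 measured genes (red) and each measured gene of 6 related lists. Blue bars are list medians and dotted lines 2-fold. The 9 genes spread from -3.44 to 5.00 around a median of 0.06, and the collagen list has the highest median, 1.54. The 5.00 is Itgbl1, a bound and not an integrin subunit. The highest integrin subunit gene is Itga1 at 1.45.

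Markers of cell types that a rib cage isolate can hold differed over the same days. Counts are at 2-fold between days 15 and 2, which 16.2% of all genes passed upward and 11.6% downward. Col2a1, Col9a1, Col3a1, Col1a1, Ibsp and Cspg4 stand in a marker list and in a list above. In whole cultures, fewer cells of a type and less RNA per cell cannot be told apart. All 12 chondrocyte markers were measured, 8 of them past 2-fold downward and 1 upward, and their summed intensity in order of day was 125014, 138193, 82646, 31813 and 42045. Single markers differed in course. At day 6 and day 2 Acan had 11052 and 19492, Sox9 2634 and 4269, and Cnmd 40929 and 16036. Of 9 epithelial markers, 4 were measured and 2 were at least 2-fold lower, the keratin genes Krt18 and Krt8, named after their values were seen. Their list sum was 2670, 681, 565, 535 and 608, and Krt18 made up 2052 of it at day 2. Epcam and Krt5 also passed the filter. Epcam had 307 at day 15 and 233 at day 2, a 1.32-fold higher value. Krt5 had 95.4 and 165, a 1.73-fold lower value. The epithelial markers Krt14, Krt19, Cdh1, Cldn4 and Dsp were below the filter, Krt19 below the floor on all 5 days. Of 8 glial markers 5 were measured and 1, Fabp7, was at least 2-fold lower, with sums of 3798, 3064, 3150, 2235 and 1979. Of 10 endothelial markers 1, Egfl7, passed the filter, and Pecam1, Tek and Vwf were below the floor on all days. Of 9 smooth muscle and pericyte markers 6 were measured, 5 at least 2-fold higher and 1 lower, with sums of 11282, 23662, 30916, 39538 and 39398. Fibroblast and tendon markers were higher in 8 of 10 and lower in 0, with sums of 36988, 47751, 94223, 100291 and 112874. All 6 measured osteoblast markers were higher, with sums of 883, 8219, 31322, 54938 and 79289. These last 3 sums, and the adipocyte sum given below, were lowest at day 2, as Itga1, Itgb5, Itgb8 and Itgbl1 were. Macrophage and leukocyte markers were higher in 0 and lower in 1 of 5, with sums of 1391, 851, 612, 1106 and 1038. Adipocyte markers were higher in 3 and lower in 0 of 5, with sums of 2049, 3476, 25537, 59001 and 33739. The 1 measured skeletal muscle marker was under 2-fold. The epithelial, glial and macrophage sums and endothelial Egfl7 were all highest at day 2, as Itga3, Itga5, Itga6 and Itga10 were. Within these lists the genes differed. Epcam, Mbp and Cd68 were highest at day 15, S100b and Sox10 at day 9, Lyz2 at day 12 and Adgre1 at day 6. Of the chondrocyte markers, Acan, Col2a1, Hapln1, Sox9 and Chad were also highest at day 2, and the others at day 6 or 9. The part of any of these cell types in the integrin differences was not tested.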

How the data were processed

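Total RNA of the 5 cultures was labelled with biotin and hybridised to 1-colour oligonucleotide arrays. The authors deposited 1 intensity per probe set and array, on a linear scale. MAS5 is the tool named in the submitters' processing notes, and its version is not given in the sources used here. The table held 45101 probe sets, and each array had a mean of 500 after trimming 2% at both ends, so the authors had scaled the arrays before deposit. A change common to most genes is thereby hidden. Of the probe sets, 64 were controls, 34945 carried 1 gene symbol and 932 several, which were not used. Symbols of 34741 were matched to a RefSeq gene table of GRCm38.p6, used for names and promoter windows only.

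Intensities were floored at 73.1, log2 was taken, and genes whose brightest probe set had a mean of at least 105.9, the median over probe sets, were kept (11075 of 18193). Differences between days were counted at 2-fold, without a test. The linear trend on day was fitted by limma's lmFit and eBayes (limma 3.58.1, R 4.3.3), with 3 residual and 2.83 prior degrees of freedom, a two-sided test and Benjamini-Hochberg adjustment over all genes kept at 0.05, and tested on simulated data with known slopes. Precision is limited by having 5 arrays, and scatter around a slope can be technical in part. That scatter also holds any bend in the course of a gene. Other steps used Python 3.11.15, pandas 2.3.3, numpy 2.4.6, scipy 1.17.1 and matplotlib 3.10.9. The members and lists were chosen with earlier results of these data known. Named list genes were the 3 brightest of each list and, where 5 or fewer passed 2-fold in a direction, those genes. Npnt and Col6a2 were named because their probe sets disagreed at 2-fold. Nearest courses were the 3 genes with the smallest root mean square difference of centred log2 values.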

Additional observations from a re-analysis of the deposited data

How the results depend on the processing

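Alternatives were quantile normalization, arrays centred on the median, a floor at the 20th percentile or at the 60th, a pseudocount, the mean over probe sets, no filter, a filter at the 70th percentile, pooled days, a log2 time scale, every probe set on its own row, and each day left out. Centring on the median moved the median log2 difference of all genes from 0.000616 to 0.14, and no member changed its call or direction at 2-fold under either scaling. Pooling days 12 and 15 against days 2 and 6 left 1 member at least 2-fold higher and 1 lower, by construction diluting courses that moved between days 2 and 6. The number of members with a rising trend was 0 under the higher floor, without a filter and with every probe set, and 0 to 0 over the 5 fits without 1 day. The number with a falling trend was 2 on the log2 scale of days. No slope that reversed passed the threshold. Over the fits without 1 day the slope ranged from -0.040 to 0.16 log2 per day for Itga1, from -0.16 to 0.056 for Itga5 and from -0.10 to 0.0041 for Itga10, in each case reversed without day 2, and from -0.0048 to 0.040 for Itgav, reversed without day 15. With the mean over probe sets Itgb1 had -0.0043. The cause was not tested. Over all genes the trend called 6 rising and 0 falling, against 734 and 476 on the log2 scale of days, 119 and 85 with the 70th percentile filter, 66 and 22 with the pseudocount, 12 and 1 with median centring, and 0 and 0 under the higher floor, without a filter, with every probe set or with any day left out. Among the recomputed differences of named genes between days 15 and 2, 484 moved by less than the SD between probe sets and 66 by more. Part of the 484 could not move. Changing the filter left the difference of every kept gene as it was, and changing the floor could move only dim genes. No paired analysis was possible because each day has 1 array. Day 2 of Itgbl1 and day 15 of 1 dim Itga3 probe set lay below the floor, which limits those folds to bounds.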
